A study of Bos taurus with 15 samples.

Results

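The proteasome is the barrel-shaped protease that degrades proteins tagged with ubiquitin, and its subunit genes were followed here across 5 groups of engineered bovine meniscal tissue. Members were all protein-coding rows whose symbol begins with PSMA to PSMG followed by a number. This rule uses names alone, but it was set with earlier results of these data known. This gave 47 genes among 38001 bovine gene rows, of which 17896 are protein-coding and carry a symbol. The members comprised 18 genes of the core particle (PSMA and PSMB), 24 of the regulatory particles (PSMC, PSMD and PSME), and 5 others, namely the inhibitor PSMF1 and the assembly chaperones PSMG1 to PSMG4. The rule found no row for PSMB6, one of the catalytic beta subunits, which was not analysed here.

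Meniscal fibrochondrocytes, the cells that make the fibrous cartilage of the knee meniscus, were grown in collagen and RNA was taken at day 28, after 3 days in growth medium with 10% fetal bovine serum and 25 days in chondrogenic medium. That medium held ascorbic acid at 50 µg/ml, dexamethasone and the growth factor TGF-β3 at 10 ng/ml, and all 5 groups shared it. In the no mold group the cells in collagen were cultured free of any mold. The other 4 groups came from molded tissues made with post anchors (anchored) or without them (unanchored), each separated into a middle region and a post region, which gives anchored middle, anchored post, unanchored middle and unanchored post groups. Each group held 3 libraries. The labels do not say whether replicates came from separate tissues or animals, so the p-values reflect no more than how far the libraries of a group lie apart, and that scatter may be technical.

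In the core particle, rings of alpha subunits, encoded by PSMA genes, gate the entrance, and rings of beta subunits, encoded by PSMB genes, carry the proteolytic sites. The regulatory particle caps the core: its base holds the PSMC ATPases that unfold a substrate, and its lid removes ubiquitin. Interferon signalling can replace catalytic beta subunits by the inducible PSMB8, PSMB9 and PSMB10, which make the immunoproteasome and favour peptides for antigen presentation. In a fibrocartilage cell, which secretes and remodels a dense matrix, the proteasome clears short-lived regulators and misfolded proteins.

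Library totals ran from 2060763 to 7415631 counts, and the shallowest libraries were no mold 1, no mold 3 and anchored middle 2. Markers of fibrochondrocytes were present, with 12 of 12 listed genes tested and a summed level of 37400 to 56800 CPM, counts per 1e+06 counts of the library. The no mold libraries, with 2060763, 4466539 and 2128230 counts, also had a lower mitochondrial share of counts (1.40% to 1.74%) than most molded libraries (1.52% to 2.36%). AFP, a transcript of fetal liver, stood at 116, 42.3 and 116 CPM in no mold libraries 1 to 3 and between 23.7 and 82.9 CPM in the molded libraries. The part of depth, mitochondrial share and AFP-bearing RNA in the differences from no mold given here was not tested. Library no mold 3 held the highest value of 15 of the 46 tested members (32.6%, against 14.7% of all tested genes), and anchored post 2 that of 13 (28.3%, against 8.50%). Unanchored middle 1 held the lowest value of 12 members (26.1%, against 6.52% of all tested genes).

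Values below are CPM after scaling by the trimmed mean of M-values (TMM), given for libraries 1, 2 and 3 of each group. The libraries read mainly the 3′ ends of transcripts and values are not divided by gene length, so levels of different genes are not compared. In bulk tissue, fewer cells of a type and less RNA per cell cannot be told apart. Changes were tested with edgeR's quasi-likelihood test over 11834 genes, with Benjamini-Hochberg adjustment and a threshold of 0.05. Standard errors (SE) of log2 differences were worked back from this test, as the absolute difference over the square root of its F statistic. They therefore hold no information beyond the test itself. Of the 47 members, 46 passed the filter on low counts. The exception was PSMA8, an alpha subunit known from testis, with 0 of 79232813 counts, which allows a level of up to 0.0379 CPM over all libraries by counting error alone.

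The summed level of the core genes was lowest in the middle regions, while the 4 molded means of the regulatory genes lay on both sides of the no mold mean. Core genes together reached 5257 ± 341 CPM (SD, n = 3) in the no mold group, 4338 ± 236 CPM (SD, n = 3) in the unanchored middle and 4406 ± 145 CPM (SD, n = 3) in the anchored middle. In the post regions they reached 5047 ± 196 CPM (SD, n = 3) without anchors and 5101 ± 436 CPM (SD, n = 3) with them. All 6 middle libraries (4135 to 4596 CPM) lay below all 9 other libraries (4771 to 5647 CPM). The middle groups were thus 17.5% (unanchored) and 16.2% (anchored) below the no mold mean, and the post groups 4.00% and 2.97% below it. These sums are weighted to the abundant transcripts and were not tested.

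**Figure D1:**
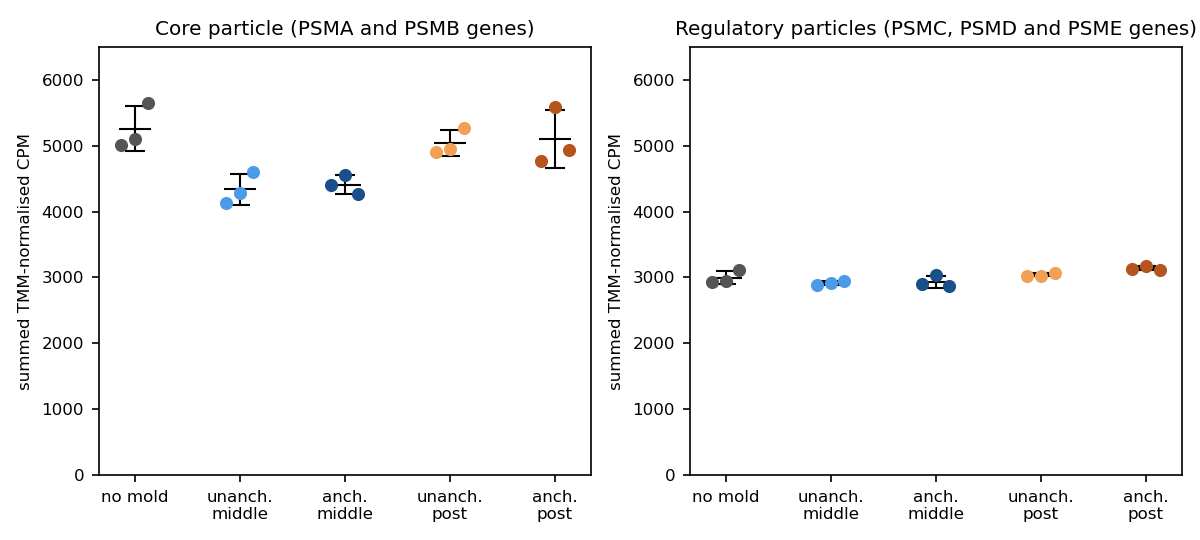
Summed TMM-normalised CPM of the core genes (left) and regulatory genes (right) by group; points are libraries and bars mark the mean and SD of 3. The core sums of the 6 middle libraries (4135 to 4596 CPM) sit below those of the other 9 (4771 to 5647 CPM), and the regulatory sums span 2867 to 3174 CPM.

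Regulatory genes summed to 2998 ± 103 CPM (SD, n = 3) in the no mold group, and the 4 molded means lay from 2.93% below it to 4.72% above it. The inhibitor and assembly chaperone genes summed to 659.4 ± 40.2 CPM (SD, n = 3) in the no mold group, where the lowest library (617.1 CPM) exceeded the highest molded library (579.4 CPM). Their molded means were 19.6% to 24.1% below the no mold mean. In the no mold group PSMG4 held 385 CPM of this sum and PSMG3 112 CPM, and both were lower in each molded mean, as was PSMF1. PSMG1 was higher in each molded mean (81.7 to 93.4 CPM) than without a mold (76.3 CPM). The molded means of PSMG2 lay on both sides of its no mold mean, so the class did not fall as a whole. The ratio of core to regulatory sums was 1.75 ± 0.053 (SD, n = 3) in the no mold group, 1.49 ± 0.066 in the unanchored middle, 1.5 ± 0.015 in the anchored middle, 1.66 ± 0.051 in the unanchored post and 1.62 ± 0.12 in the anchored post, each n = 3. This ratio is weighted to the abundant transcripts and was not tested. It serves to set groups side by side and does not give the proportion of core to regulatory particles.

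**Figure D2:**
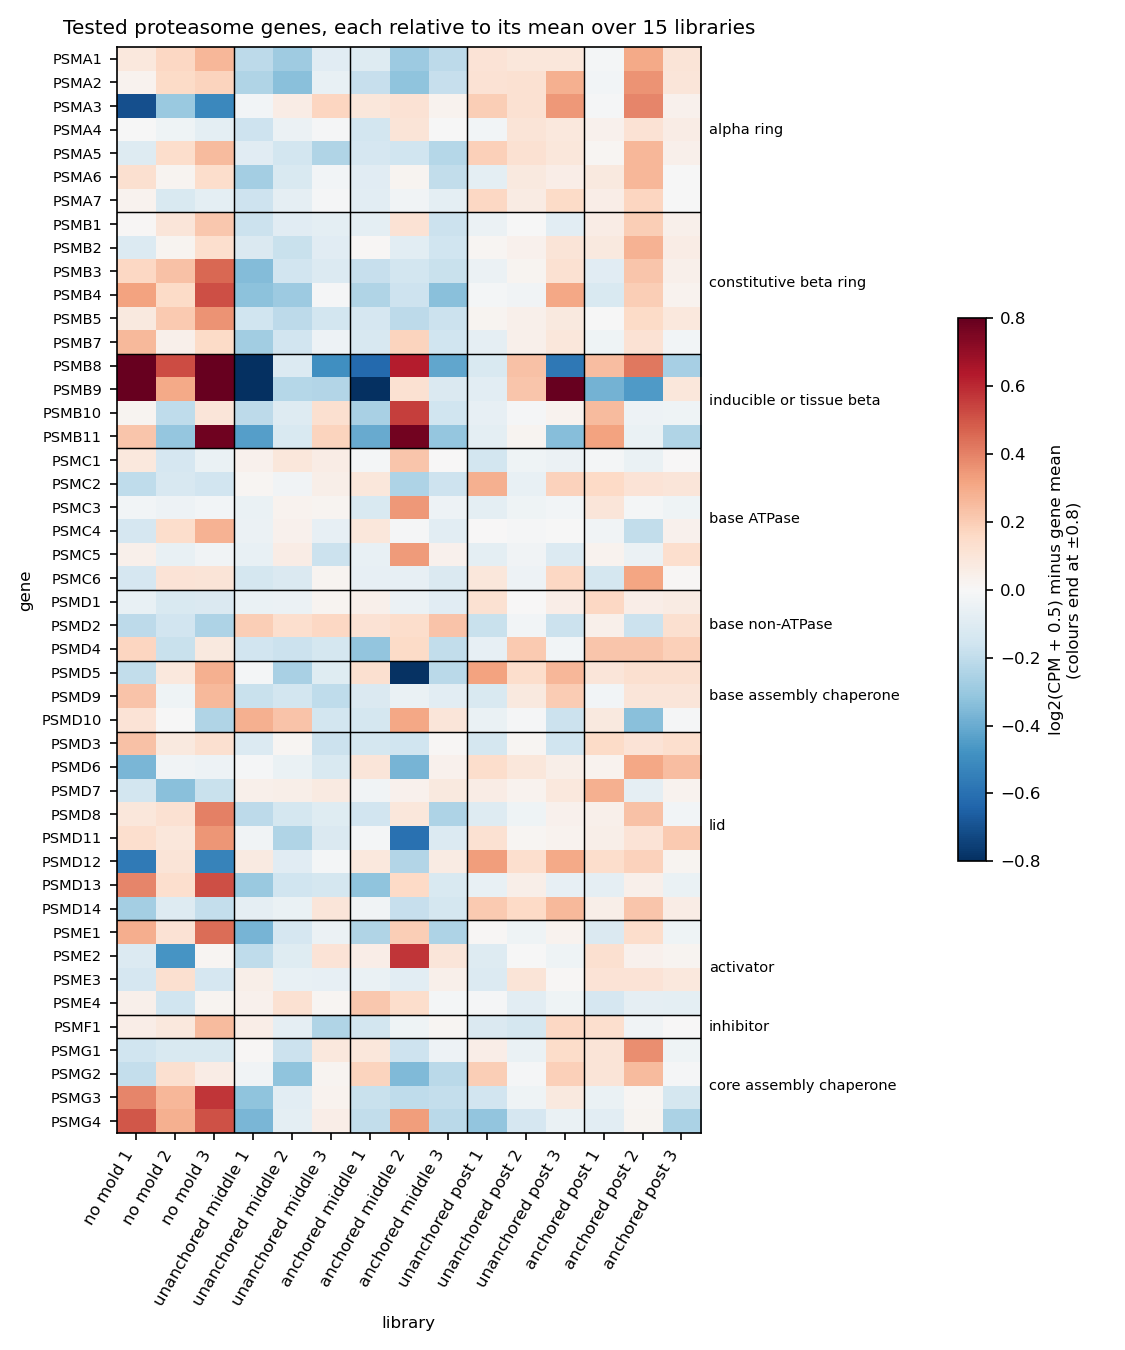
Each tested member's log2(CPM + 0.5) minus its mean over the 15 libraries, one row per gene grouped by class and one column per library grouped by treatment. Most core rows are low in the middle columns, where 12 members have their lowest value in unanchored middle 1, and the no mold columns do not overlap the molded ones for PSMA3, PSMD7 and PSMG3. Of all tested genes, 5.64% lay higher and 4.29% lower in every molded library than in any no mold library.

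The mean of the 4 molded groups was compared with the no mold group to ask which members differ between tissue formed in a mold and cells in collagen without one. Among the 46 tested members, 5 were higher and 9 lower in molded tissue, 14 in all, where 8.04% of all tested genes were higher and 7.91% lower. By class, 1 core gene rose and 4 fell, 4 regulatory genes rose and 3 fell, and 2 assembly chaperones fell. The median log2 difference was -0.15 over 17 core genes and 0.04 over 24 regulatory genes. The count was 8 without no mold 1, 4 without no mold 3, and 0 without the 3 shallowest libraries, which leaves 1 no mold library. Calls over all genes fell with it, from 1888 to 1127, 856 and 335, so the members' share without no mold 3 was close to that of all genes.

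PSMA3, an alpha ring subunit, was the member with the smallest p in this comparison. It read 160.0, 212 and 182 CPM in the no mold libraries, 256, 272 and 293 CPM in the unanchored middle and 277, 283 and 266 CPM in the anchored middle. In the post regions it read 299, 284 and 331 CPM without anchors and 259, 342 and 267 CPM with them. All 12 molded libraries lay above all 3 no mold libraries, a pattern found in 5.64% of all tested genes and in 2 members, PSMA3 and PSMD7. Its log2 fold change was 0.62 (SE 0.0966, edgeR adjusted p = 0.000139), and 18.8% of its counts sit in fractional values, which arise when the counting divides a read between genes. The other 6 alpha genes did not pass, with the subclass running from -0.21 to 0.62 on the log2 scale.

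The alpha ring as a whole had 4 of 7 genes below 0 and a median log2 difference of -0.12. In the beta ring all 6 tested genes of its standard form (PSMB1 to PSMB5 and PSMB7) had a log2 difference below 0, with a median of -0.23, and 3 of them fell, while 50.1% of all tested genes lay above 0. PSMB4, a structural subunit, read 701, 622 and 799 CPM in the no mold libraries. It read 445, 458 and 555 CPM in the unanchored middle, 473, 499.7 and 444 CPM in the anchored middle, 553, 549.7 and 694 CPM in the unanchored post and 515, 642 and 570.1 CPM in the anchored post. Every middle library was below every no mold library, whereas the post libraries reached into the no mold range. For PSMB4 the log2 fold change was -0.41 with an SE of 0.0936 (edgeR adjusted p = 0.00378).

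PSMB3, a structural subunit whose gene overlaps PCGF2 in RefSeq's ARS-UCD2.0 assembly, read 812, 851 and 995 CPM without a mold. It stood at 630.2 ± 52.9 CPM in the unanchored middle and 644 ± 7.95 CPM in the anchored middle, and at 741 ± 43.3 CPM and 757 ± 82.1 CPM in the unanchored and anchored post (SD, n = 3 each). It fell by 0.36 (log2, SE 0.0824, edgeR adjusted p = 0.00424), and 53.2% of its counts sit in fractional values. PSMB5, which carries the chymotrypsin-like site of the standard core, read 612, 670.1 and 742 CPM without a mold, 518, 501 and 524 CPM in the unanchored middle and 528, 501 and 513 CPM in the anchored middle. In the post regions it read 588, 595 and 611 CPM without anchors and 577, 644 and 615 CPM with them, so the middle and unanchored post libraries lay below the no mold range and 2 anchored post libraries within it. PSMB5 fell by 0.27 (log2, SE 0.0726, edgeR adjusted p = 0.0116), and 45.8% of its counts sit in fractional values. PSMB7, with the trypsin-like site, differed by -0.19 (adjusted p = 0.124). Without no mold 3 the calls of PSMB3, PSMB4 and PSMB5 were lost, with adjusted p-values of 0.0902, 0.081 and 0.155.

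Of the inducible catalytic genes, PSMB8 fell, while PSMB9 and PSMB10 did not pass. Both PSMB8 and PSMB9 were near the limit of detection, with 144 and 152 counts over all 15 libraries. PSMB8 read 4.05, 2.97 and 3.72 CPM without a mold and had group means of 1.17 ± 0.586 and 1.87 ± 1.19 CPM in the unanchored and anchored middle and 1.73 ± 0.608 and 2.20 ± 0.633 CPM in the unanchored and anchored post (SD, n = 3 each). One molded library, anchored middle 2 at 3.23 CPM, lay within the no mold range. PSMB8 fell by 1.13 (log2, SE 0.365, edgeR adjusted p = 0.0367). Omitting any one of no mold 1, no mold 2, no mold 3, unanchored middle 1, unanchored post 1, unanchored post 3, anchored middle 1 and anchored middle 3 ended that call (adjusted p from 0.05 to 0.141).

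PSMB9 read 4.05, 2.51 and 4.47 CPM without a mold, and its group means elsewhere ran from 1.24 CPM (unanchored middle) to 2.77 CPM (unanchored post). Its difference was -1.01 (log2, adjusted p = 0.0699). PSMB10, with 5192 counts in all, stood at 65.3 ± 6.91 CPM (SD, n = 3) without a mold and its difference was 0.05 (adjusted p = 0.859), a sign that flipped to -0.05 without no mold 2 and to -0.01 without anchored middle 2. The thymus-type PSMB11 had 159 counts and differed by -0.30 (adjusted p = 0.65). PSMB11 overlaps PSMB5 in ARS-UCD2.0, so its reads cannot be separated from those of PSMB5 with certainty. None of the counts of PSMB11 sit in fractional values, against 45.8% of those of PSMB5. In that assembly PSMB8 and PSMB9 each lie next to TAP1, a peptide transporter of antigen presentation.

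Leukocytes are rich in the inducible subunits, so a list of 15 leukocyte genes was read beside them. It has 14 rows, of which 5 passed the filter, and its summed level was 19.7 to 30.3 CPM in the no mold libraries and 16.9 to 24 CPM in the molded libraries. MS4A1 and ITGAM had 0 counts in every library, and PTPRC, which marks all nucleated blood cells, had 25 counts in total. None of the 5 tested leukocyte genes passed in the molded comparison by edgeR. The part of leukocyte RNA in the PSMB8 and PSMB9 differences was not tested.

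Markers of other kinds did differ between molded tissue and the no mold group. Of the 12 fibrochondrocyte markers 1 rose and 6 fell. The cartilage collagen COL2A1 stood at 708 ± 181 CPM (SD, n = 3) without a mold and at group means of 48.4 to 155 CPM in molded tissue (log2 -3.24, edgeR adjusted p = 1.59e-08). The chondrogenic factor SOX9 stood at 224 ± 18.8 CPM (SD, n = 3) and at group means of 124 to 139.6 CPM (log2 -0.79, edgeR adjusted p = 5.86e-07). Other genes of this list had higher means in every molded group, so the list moved both ways. DCN had a mean of 1652 CPM without a mold and group means of 2794 to 3101 CPM in molded tissue. COL1A2 had a mean of 6751 CPM and group means of 7103 to 9570 CPM. Of 7 skeletal muscle markers 2 were tested and 1 fell (DES, log2 -0.71, adjusted p = 0.0142), with a summed level of 13.8 to 27.3 CPM without a mold and 7.23 to 18.1 CPM in molded libraries. Of 4 red blood cell markers 2 were tested and 1 fell (HBM, log2 -3.12, adjusted p = 0.000827), with a summed level of 2.98 to 7.85 CPM and 0.146 to 6.53 CPM. These 3 lists differ between the same groups as the proteasome genes, and their part in those differences was not tested.

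**Figure D3:**
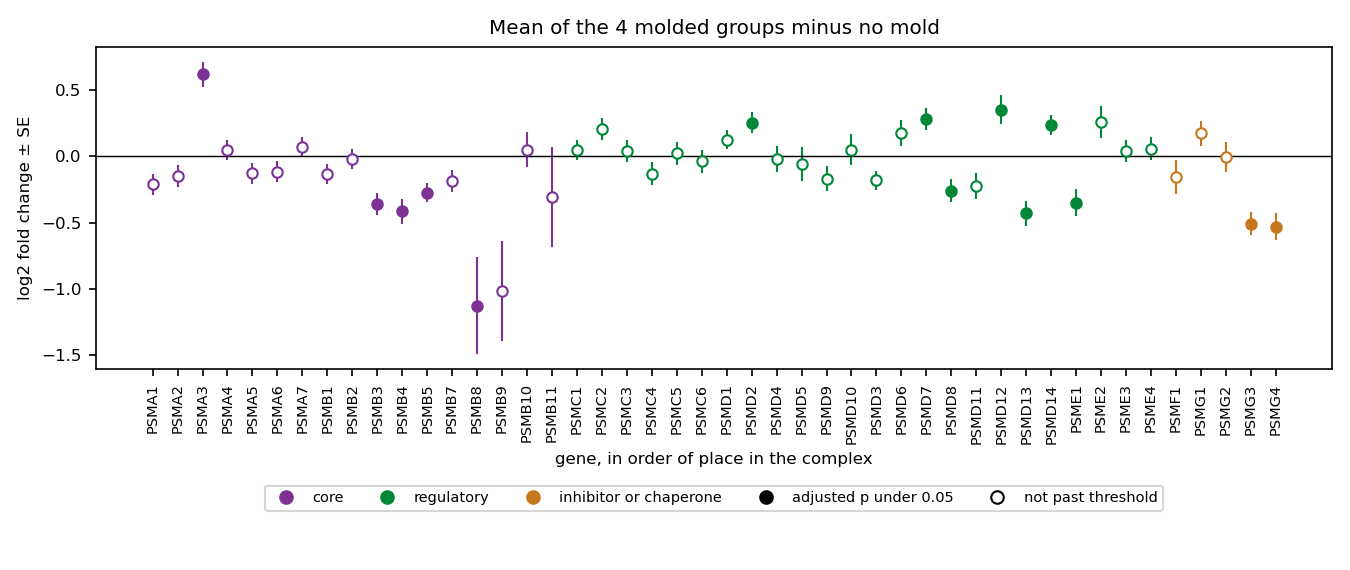
Log2 fold change of each tested member, molded minus no mold, with its standard error, ordered by class; filled points have an edgeR adjusted p under 0.05. PSMA3 lies highest at 0.62 and PSMB8 lowest at -1.13, and the 6 standard beta ring genes lie below 0.

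Regulatory genes moved both ways. In the base, none of the 6 ATPase genes passed by edgeR (1 had an unadjusted p under 0.05, against 29.7% of all tested genes). PSMC4, one of these ATPases, differed by -0.13 (adjusted p = 0.318). PSMD2, the large scaffold that binds ubiquitin receptors and substrates, rose: it read 157, 164 and 153 CPM without a mold, 209, 199 and 204 CPM in the unanchored middle and 197, 201 and 213 CPM in the anchored middle. In the post regions it read 161, 179 and 161 CPM without anchors and 187, 161 and 199 CPM with them, nearer to the no mold level. The log2 difference was 0.25 (SE 0.0776, edgeR adjusted p = 0.0273), and the call was lost without no mold 1 (adjusted p = 0.0858), no mold 2 (0.053) or no mold 3 (0.128). PSMD4, a ubiquitin receptor, differed by -0.02 (adjusted p = 0.923), with a sign that changed under 6 alternatives, and 3 chaperones of base assembly (PSMD5, PSMD9 and PSMD10) did not pass.

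In the lid, 3 of 8 genes rose and 2 fell. PSMD7, the partner of the deubiquitinase PSMD14, read 130.1, 114 and 127 CPM without a mold and 137 to 175 CPM in the molded libraries, with no overlap (log2 0.28, SE 0.0812, edgeR adjusted p = 0.0191). PSMD14 itself, which cuts ubiquitin chains from the substrate, had a log2 difference of 0.23 (SE 0.0758, edgeR adjusted p = 0.0367), from 168 ± 9.66 CPM (SD, n = 3) without a mold. The lid scaffold PSMD12 rose by 0.35 (SE 0.112, edgeR adjusted p = 0.0335), but its no mold libraries read 69.4, 110.4 and 71.0 CPM, and the deepest of them lay inside the molded range. Without the 3 shallowest libraries its adjusted p was 0.981.

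PSMD13, a lid scaffold, was the regulatory gene with the smallest p. It read 129, 108 and 140.4 CPM without a mold, 79.8, 87.9 and 89.1 CPM in the unanchored middle and 78.3, 109.9 and 90.2 CPM in the anchored middle. In the post regions it read 94.3, 101 and 93.7 CPM without anchors and 93.4, 101 and 94.8 CPM with them, so that anchored middle 2 alone among the molded libraries exceeded the lowest no mold library. It fell by 0.43 (log2, SE 0.092, edgeR adjusted p = 0.00241). PSMD8, chosen after its values were seen, fell by 0.26 (edgeR adjusted p = 0.0387), and PSMD11, a lid subunit, differed by -0.22 (adjusted p = 0.112).

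Calls in the lid and base varied with the libraries used. Leaving out 1 library at a time, the call of PSMD13 was kept throughout, that of PSMD7 was lost without no mold 2 (adjusted p = 0.145) or no mold 3 (0.0576), and that of PSMD12 without no mold 1 (0.239) or no mold 3 (0.255). The call of PSMD14 was lost without no mold 1 (adjusted p = 0.168), no mold 3 (0.135), unanchored post 1 (0.0512), unanchored post 3 (0.0524) or anchored middle 1 (0.0525), and that of PSMD8 without any of 10 libraries (adjusted p from 0.054 to 0.369).

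Of the activators that open the gate of the core without ubiquitin, PSME1 fell. It read 66.8, 59.2 and 74.4 CPM without a mold and had means of 48.1 ± 5.45 and 51.5 ± 9.53 CPM in the unanchored and anchored middle and of 54.6 ± 1.20 and 54.6 ± 5.06 CPM in the unanchored and anchored post (SD, n = 3 each). Its log2 difference was -0.35 (SE 0.103, edgeR adjusted p = 0.0224), and 37.0% of its counts sit in fractional values. The call was lost without no mold 1 (adjusted p = 0.0889) or no mold 3 (0.186). PSME2, which forms a ring with PSME1, differed by 0.26 (adjusted p = 0.154), the nuclear activator PSME3 by 0.04 (adjusted p = 0.815) and PSME4 by 0.06 (adjusted p = 0.727). The inhibitor PSMF1 differed by -0.16 (adjusted p = 0.446).

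The assembly chaperones PSMG3 and PSMG4, which pair up to help build the alpha ring, were both lower in molded tissue. PSMG3 read 110.4, 101 and 125 CPM without a mold, 67.2, 79.4 and 85.8 CPM in the unanchored middle and 74.2, 72.9 and 73.6 CPM in the anchored middle. In the post regions PSMG3 read 75.5, 81.9 and 88.9 CPM without anchors and 81.0, 85.1 and 76.2 CPM with them. All 12 molded libraries lay below all 3 no mold libraries, which 4.29% of all tested genes also showed. PSMG3 fell by 0.51 (log2, SE 0.0857, edgeR adjusted p = 0.000301).

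PSMG4 read 402, 347 and 405 CPM without a mold and had means of 262 ± 38.1 CPM in the unanchored middle, 284 ± 64.4 CPM in the anchored middle, 254 ± 22.8 CPM in the unanchored post and 265 ± 25.0 CPM in the anchored post (SD, n = 3 each). One molded library, anchored middle 2 at 359 CPM, lay within the no mold range. It fell by 0.53 (log2, SE 0.103, edgeR adjusted p = 0.00108), and none of the counts of either gene sit in fractional values. The calls of PSMA3, PSMD13, PSMG3 and PSMG4 were kept whichever single library was left out, and were lost without the 3 shallowest (adjusted p = 0.11, 0.271, 0.12 and 0.0764). The other chaperones PSMG1 and PSMG2, which form the first scaffold of the alpha ring, did not pass, with PSMG1 at 0.17 (adjusted p = 0.23).

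**Figure D4:**
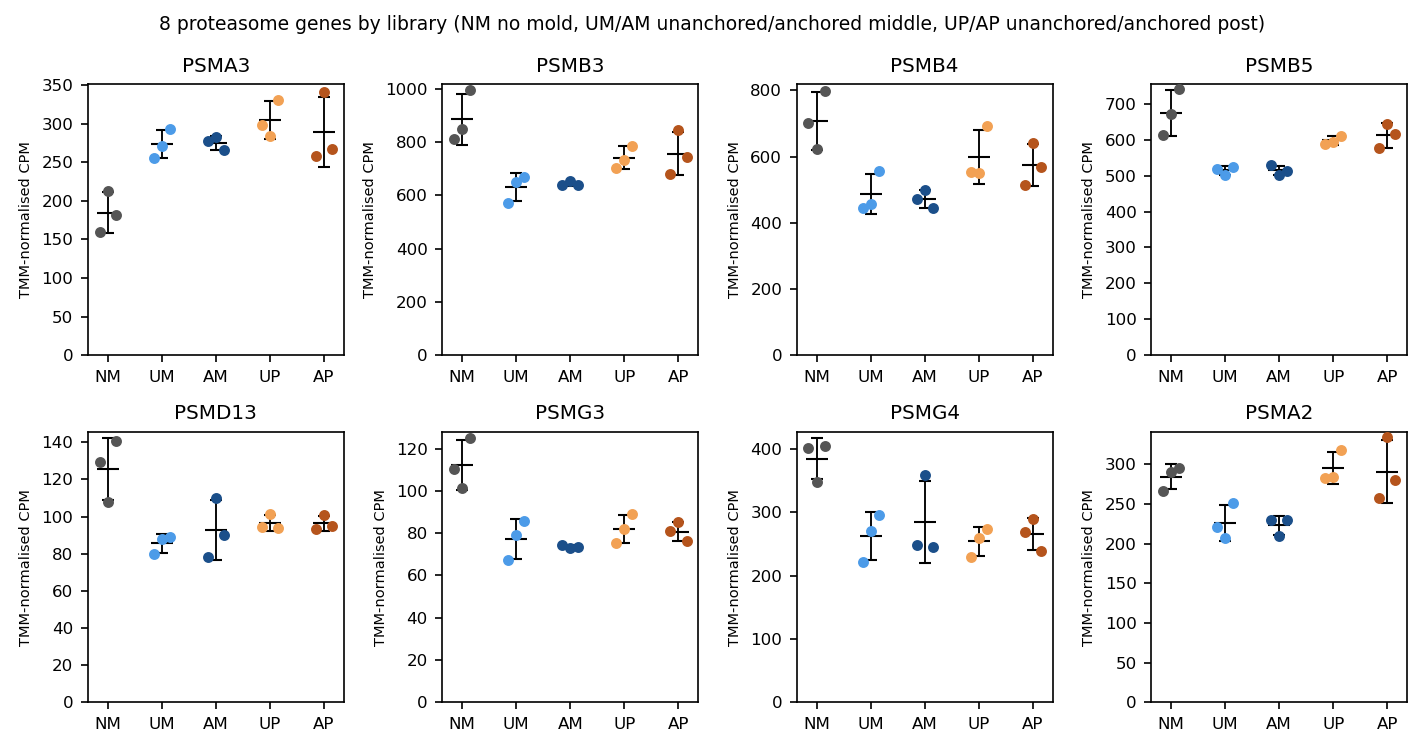
TMM-normalised CPM of selected members in each of the 15 libraries by group, with the mean and SD of 3. PSMA3 is higher in every molded library than in any no mold library, PSMG3 is lower in every molded library, and PSMB5 in the 6 middle libraries lies at 501 to 528 CPM, below its no mold range.

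Each molded group was also compared with the no mold group alone. These 4 comparisons share the 3 no mold libraries, so they are not independent and their values are given side by side. In the unanchored middle 2 members rose and 13 fell, where 14.8% of all tested genes passed (7.56% higher and 7.20% lower). In the anchored middle 3 rose and 10 fell, where 13.3% passed (7.11% higher and 6.20% lower). In the unanchored post 3 rose and 3 fell, where 9.02% passed (4.93% higher and 4.09% lower), and in the anchored post 1 rose and 2 fell, where 5.56% passed (2.92% higher and 2.64% lower). Core genes made up 8 of those that fell in the unanchored middle and 5 in the anchored middle, and 0 in either post region by edgeR. These differences between counts were not tested in themselves, and regions are compared directly further on.

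PSMA3 rose in all 4 comparisons, with log2 values of 0.56 and 0.56 in the unanchored and anchored middle and 0.71 and 0.64 in the unanchored and anchored post (edgeR adjusted p = 0.00252, 0.00234, 0.000504 and 0.00178). PSMG3 and PSMG4 fell in all 4. PSMG3 differed by -0.53, -0.60, -0.44 and -0.47 in the same order (adjusted p = 0.00214, 0.000814, 0.0114 and 0.0119), and PSMG4 by -0.55, -0.44, -0.59 and -0.53 (adjusted p = 0.00744, 0.029, 0.00655 and 0.0186). PSMA3 kept all 4 calls whichever single library was left out. PSMG3 lost its post calls without no mold 3 (adjusted p = 0.0838 unanchored and 0.0926 anchored), without unanchored post 1 (0.0791) or without anchored post 3 (0.0511). PSMG4 lost calls in each group when a library was left out: without unanchored middle 1 (adjusted p = 0.0549), without unanchored post 1 (0.0509), and in the anchored groups without no mold 1, no mold 3, or replicate 1 or 3 of that group (0.0578 to 0.153).

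In the middle regions the beta subunits PSMB3, PSMB4 and PSMB5 fell in both. PSMB4 differed by -0.54 (unanchored, adjusted p = 0.00435) and -0.58 (anchored, adjusted p = 0.00252), PSMB3 by -0.49 and -0.46 (adjusted p = 0.00337 and 0.00563), and PSMB5 by -0.39 in each (adjusted p = 0.00671 and 0.0071). The alpha gene PSMA1 also fell, by 0.36 and 0.37 (adjusted p = 0.0143 in each), and so did PSMA2, by 0.33 and 0.35 (adjusted p = 0.0357 and 0.0301). PSMD2 rose in both, by 0.37 and 0.36 (adjusted p = 0.0109 and 0.0132), PSMD13 fell by 0.54 and 0.44 (adjusted p = 0.00304 and 0.0138), and PSME1 fell by 0.46 and 0.39 (adjusted p = 0.0174 and 0.047). PSMB4 kept both calls with any 1 library left out, whereas PSMB5, PSMA1, PSMA2, PSMD2 and PSME1 lost both without no mold 3 (adjusted p from 0.0555 to 0.21), and PSMB3 and PSMD13 lost theirs in the anchored middle (0.0577 and 0.0952). Other libraries mattered too. Of 6 runs with 1 library left out, PSMA2 lost its call in 5 in each middle region. PSME1 lost its call in 3 (unanchored) and 4 (anchored), PSMA1 in 3 and 2, PSMD2 in 1 and 2, and PSMD13 in 0 and 4.

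Other members passed in a single one of the 4 groups. PSMB8, PSMB9, PSMB7 and PSMD8 fell in the unanchored middle, by 1.58, 1.47, 0.31 and 0.36 (adjusted p = 0.0221, 0.0366, 0.049 and 0.0273). In the anchored middle PSMD11 fell by 0.39 (adjusted p = 0.0329) and PSME2 rose by 0.44 (adjusted p = 0.0456), a call that rests on anchored middle 2 at 63.6 CPM, since its adjusted p was 0.131 without that library, and 0.303 without no mold 2 or 0.0596 without no mold 1. In the unanchored post PSMD14 rose by 0.40 (adjusted p = 0.00875) and PSMD12 rose by 0.53 (adjusted p = 0.0152). PSMD13, which fell in both middle regions, also fell there, by 0.37 (adjusted p = 0.0466). Each of these calls was rerun 6 times, with 1 compared library left out each time. The PSMD13 call in the unanchored post was lost in 5 runs, and those of PSMD12, PSMD11 and PSMB7 in 4 each. Those of PSMB8, PSMB9, PSMD8 and PSME2 were lost in 3 runs each, and that of PSMD14 in 0.

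The counts depended on single libraries, as did the calls over all genes. In the unanchored middle the 15 called members became 6 without no mold 3 and 7 without unanchored middle 1, while all genes called went from 1747 to 790 and 1144. In the anchored middle the 13 became 4 without no mold 3 and 6 without anchored middle 3 (all genes from 1575 to 768 and 1015). In the unanchored post the 6 became 3 without no mold 3 and 2 without unanchored post 1 (all genes from 1068 to 496 and 527). In the anchored post the 3 became 1 without no mold 3, 1 without anchored post 3 and 5 without no mold 2 (all genes from 658 to 251, 535 and 616).

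The post region was compared with the middle region in the mean of both mold types. The fold changes of this comparison use no library of the no mold group, while the estimate of spread comes from all 5 groups. Of the 46 members 9 passed, where 8.51% of all tested genes did. Core genes were higher in the post region: 5 of 17 rose and none fell, where 3.32% of all tested genes rose and 5.19% fell. All 17 tested core genes had a log2 difference above 0, with a median of 0.20, while 48.7% of all tested genes were above 0. Of the 24 regulatory genes 3 rose and 1 fell, 16 were above 0, and the median was 0.12. None of the 5 inhibitor and chaperone genes passed by edgeR (1 had an unadjusted p under 0.05, against 23.4% of all tested genes). In 8 members every post library lay above every middle library, 7 of them core genes, where 1.88% of all tested genes did so. These members are PSMA1, PSMA2, PSMA5, PSMA7, PSMB2, PSMB3, PSMB5 and PSMD11.

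Among the alpha subunits PSMA1, PSMA2 and PSMA5 rose. PSMA2 read 220.4, 207 and 251 CPM in the unanchored middle and 283, 284 and 318 CPM in the unanchored post. With anchors PSMA2 read 230.1, 209 and 229.6 CPM in the middle and 257, 334 and 279.8 CPM in the post region. Its log2 difference was 0.38 (SE 0.0734, edgeR adjusted p = 0.00215), and 91.7% of its counts sit in fractional values, the highest share of any member.

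PSMA1 read 277, 263 and 301 CPM in the unanchored middle and 345, 341 and 342 CPM in the unanchored post. With anchors PSMA1 read 298, 262 and 277 CPM in the middle and 316, 395 and 344 CPM in the post region. It rose by 0.31 (log2, SE 0.0684, edgeR adjusted p = 0.00604), and fractional values held 27.6% of its counts. PSMA5, with 8.26% of such counts, read 234, 225 and 211 CPM and 227, 223 and 213 CPM in the unanchored and anchored middle. In the post region PSMA5 read 284, 271 and 265 CPM without anchors and 251, 299 and 256 CPM with them, and it rose by 0.29 (log2, SE 0.0694, edgeR adjusted p = 0.012). These 3 calls were kept under every alternative run.

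Among the beta subunits PSMB4 and PSMB5 rose, with the values given above. PSMB5 spanned 501 to 528 CPM in the 6 middle libraries and 577 to 644 CPM in the 6 post libraries (log2 0.23, SE 0.0654, edgeR adjusted p = 0.0276). PSMB4 spanned 444 to 555 CPM and 515 to 694 CPM (log2 0.29, SE 0.0851, edgeR adjusted p = 0.0322). PSMB3 and PSMB2 did not overlap between regions but missed the threshold (adjusted p = 0.0525 and 0.0602), and so did PSMA7 (adjusted p = 0.0942). PSMB7 differed by 0.12 (adjusted p = 0.35). The inducible PSMB8, PSMB9 and PSMB10 differed by 0.49, 0.70 and 0.03 (adjusted p = 0.352, 0.171 and 0.902).

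Among regulatory genes the deubiquitinase PSMD14 rose by 0.22 (log2, SE 0.0636, edgeR adjusted p = 0.0301), the ubiquitin receptor PSMD4 by 0.27 (SE 0.0798, adjusted p = 0.0356) and the base assembly chaperone PSMD5 by 0.34 (SE 0.101, adjusted p = 0.0359). PSMD2 was the 1 member that fell, by 0.22 (SE 0.0647, edgeR adjusted p = 0.0328), with 197 to 213 CPM in the middle libraries and 161 to 199 CPM in the post libraries. All 8 lid genes were above 0, with a median of 0.17, whereas 2 of the 6 ATPase genes were. PSMD11 did not overlap between regions (adjusted p = 0.0538). PSME1 differed by 0.15 (adjusted p = 0.298), PSME2 by -0.08, PSME3 by 0.08, PSME4 by -0.16 (adjusted p = 0.16), PSMC4 by -0.02, PSMF1 by 0.07 (adjusted p = 0.696) and PSMG1 by 0.13, none of which passed.

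**Figure D5:**
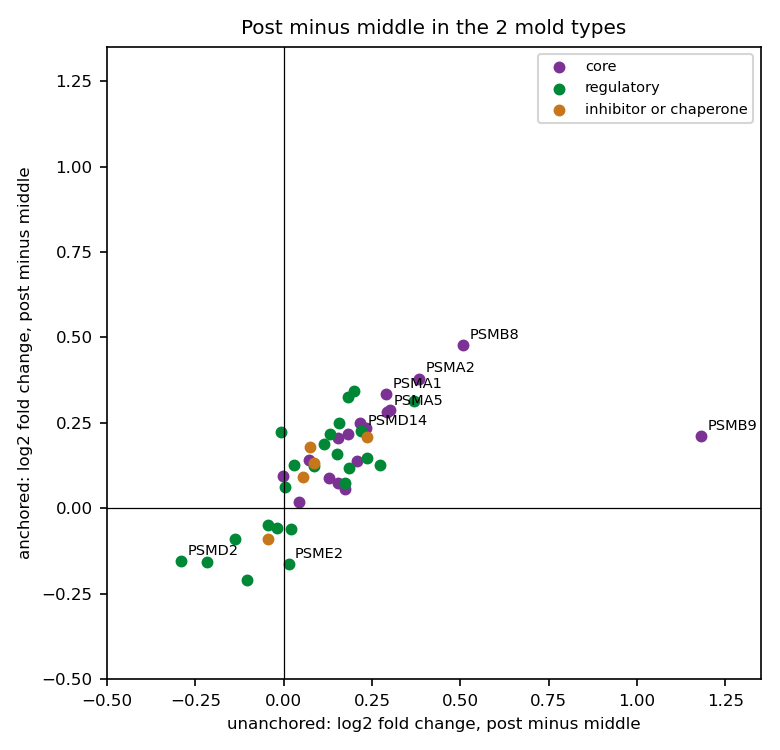
Log2 fold change of each tested member, post minus middle, in unanchored (horizontal axis) and anchored tissue (vertical axis), coloured by class. Core genes lie above 0 in both mold types in 16 of 17 cases, and PSMB9 lies far to the right at 1.18 in unanchored tissue.

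Calls in this comparison also rested on single libraries. The 9 called members became 4 without unanchored middle 1, 5 without anchored post 3, and 3 without unanchored middle 2, unanchored post 3, anchored middle 3 or anchored post 2, the 3 being PSMA1, PSMA2 and PSMA5. Calls over all genes went from 1007 to 648, 816, 465, 602, 634 and 754 in the same order. The number of core genes above 0 was 15 to 17 when 1 library was left out, and 17 without the 3 shallowest libraries. Fibrochondrocyte markers also differed between the regions, 1 of 12 rising and 7 falling in the post region, with a summed level of 42900 to 56800 CPM in the middle libraries and 37400 to 47100 CPM in the post libraries. The part of that difference in the core gene values was not tested.

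Within 1 mold type no member passed by edgeR, where 1.92% of all tested genes passed in anchored tissue and 0.448% in unanchored tissue. In anchored tissue 16 members had an unadjusted p under 0.05 (14.0% of all tested genes did), the smallest adjusted p was 0.0586 for PSMA2 (log2 0.38), and DESeq2 called 3. In unanchored tissue 13 members had an unadjusted p under 0.05 (13.9% of all tested genes did), the smallest adjusted p was 0.0984 for PSMA2 (log2 0.38), and DESeq2 called 2. Calls over all genes by DESeq2 are not given here, so its member counts stand without a share of all genes. The 2 mold types share no library, and 16 of 17 core genes (94.1%) were higher in the post region of both. The same held for 15 of 24 regulatory genes (62.5%) and for 34.3% of all tested genes.

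Anchored and unanchored tissues were compared to ask whether post anchors go with a difference in these genes. No member passed by edgeR in the mean of both regions, in the middle or in the post region, where 0% of all tested genes passed in each. At an unadjusted p under 0.05 there was 1 member in each comparison, where 5.48%, 3.09% and 3.84% of all tested genes were, and DESeq2 called 0 members in each. In the mean of both regions that member was PSME2, with a log2 difference of 0.20 (SE 0.0913, adjusted p = 0.886). In the middle it was again PSME2 (log2 0.29, SE 0.129), where anchored middle 2 read 63.6 CPM. Anchored middle 1 and 3, at 44.3 and 45.7 CPM, lay within the unanchored middle range of 37.0 to 46.0 CPM. In the post region it was the lid gene PSMD3 (log2 0.23, SE 0.09), where anchored libraries read 155.6 to 160.3 CPM and unanchored libraries 129.2 to 145.5 CPM. Every anchored post library likewise lay above every unanchored post library in 4.99% of all tested genes.

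Over the 43 members with at least 1000 counts, the anchored minus unanchored difference in the mean of both regions ran from -0.11 to 0.20 on the log2 scale, with standard errors of 0.0592 to 0.106. The interaction of anchoring and region, which asks whether the post and middle regions differ by another amount when anchors are present, called 0 members by edgeR and 0 by DESeq2, and 0 had an unadjusted p under 0.05, where 0% and 1.88% of all tested genes passed the adjusted and the unadjusted limit. It ran from -0.97 (PSMB9, SE 0.627) to 0.23 (PSMD3). A p above the threshold does not show that the tissues act alike.

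Genes that work with the proteasome were read from 4 lists, beside 8.04% of all tested genes higher and 7.91% lower in molded tissue. The list of accessory factors (15 genes, 16 rows tested) had 2 rows higher and 1 lower in molded tissue. Both rows higher belong to SEM1, a small lid subunit, at 0.42 and 0.40 (log2, edgeR adjusted p = 0.00312 and 0.00361). Of their counts, 40.6% and 45.4% sit in fractional values, so these rows may hold shared reads. PITHD1, a proteasome-binding protein, fell by 0.50 (adjusted p = 0.00328). POMP, which closes core assembly, differed by 0.04 (adjusted p = 0.83).

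Of 10 transcriptional and processing factors, 2 rose in molded tissue and none fell. NFE2L2, a stress factor known to raise proteasome genes, rose by 0.37 (adjusted p = 0.0069), and STAT3 by 0.31 (adjusted p = 0.0144). NFE2L1, the factor behind the rebound of proteasome genes when the protease is inhibited, differed by 0.00 (adjusted p = 0.991), a sign that changed in other settings. Of 11 tested genes of the ubiquitin list, 1 rose and 2 fell, and the one that rose was the activating enzyme UBA6 (log2 0.65, adjusted p = 0.0116).

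In the antigen presentation list 5 of 13 tested rows, which belong to 4 genes, fell in molded tissue and none rose, where 7.91% of all tested genes fell. IRF1, a transcription factor that drives inducible subunits, read 7.09, 4.57 and 7.44 CPM without a mold and 1.89 to 5.03 CPM in the molded libraries. IRF1 fell by 1.08 (log2, SE 0.264, edgeR adjusted p = 0.00645). B2M, the light chain of the class I molecule, fell in both of its rows (log2 -0.47 and -0.37, adjusted p = 0.000639 and 0.00811), with 67.0% and 49.3% of their counts in fractional values, so these rows may share reads. The interferon receptor chain IFNGR2 fell by 0.31 (adjusted p = 0.00471). TAP1, chosen after its values were seen, fell by 0.84 (adjusted p = 0.032) and read 10.1, 4.57 and 9.43 CPM without a mold, of which the deepest library lay inside the molded range of 2.52 to 6.44 CPM.

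Between regions, 3 of 16 accessory rows rose in the post region and none fell, where 3.32% of all tested genes rose: the redox protein TXNL1 by 0.29, the proteasome-bound deubiquitinase USP14 by 0.25 and PITHD1 by 0.30 (edgeR adjusted p = 0.0137, 0.0285 and 0.0342). One row of B2M rose by 0.31 (adjusted p = 0.0148), and no row of the transcription and ubiquitin lists passed. POMP differed by 0.17 (adjusted p = 0.148) and NFE2L1 by -0.03 (adjusted p = 0.877). Several calls in these lists rested on 1 library. Between regions, leaving out 1 of the 12 molded libraries ended the call of PITHD1 for 7 of them (unanchored middle 1 and 2, unanchored post 2 and 3, anchored middle 3, anchored post 2 and 3; adjusted p from 0.064 to 0.104). It ended that of USP14 for 5 (unanchored middle 2, unanchored post 2 and 3, anchored middle 3, anchored post 2; adjusted p from 0.0547 to 0.112), that of TXNL1 for unanchored middle 2 (0.057) and that of B2M for unanchored middle 2 (0.062) and unanchored post 3 (0.0507). Against no mold, without no mold 3, IRF1, IFNGR2, NFE2L2, STAT3, TAP1 and 1 row of B2M lost theirs (adjusted p from 0.0532 to 0.202), and without no mold 1, UBA6 and TAP1 did (adjusted p = 0.0744 and 0.221). The calls of these lists against no mold, SEM1, PITHD1 and B2M included, were lost without the 3 shallowest libraries, which leaves 1 no mold library.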

How the data were processed

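RNA was measured in 15 libraries. The authors deposited 2 columns per library, expected counts and CPM, per the file headers. Only the expected counts were used, rounded to whole numbers, and CPM were recomputed after scaling. Per the labels' protocols, oligo-dT primers with a barcode and molecular identifier captured the RNA, and the cDNA was tagmented. The submitters' processing notes list STAR 2.7, SAMtools 1.21, Subread 2.1.1 with featureCounts, and MultiQC 1.33. The build, the annotation, the use of strand and any collapsing of molecular identifiers were not given in the sources used here, so overlapping genes can share reads and PCR copies may count as reads.

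The 92 spike-in rows (at most 0.00127% of counts) were left out. filterByExpr kept 11834 genes (count 10, total 15), TMM factors ran from 0.934 to 1.05, and 1 quasi-likelihood model over 5 groups was fitted with edgeR 4.0.16 in R 4.3.3 with 12 contrasts, adjusted over all genes. The fit was tested on simulated data. Alternatives were DESeq2 1.42.0, other scaling, no filter, a replicate block and libraries left out. Named were up to 12 called members by smallest adjusted p, a fixed panel, and up to 3 genes per pathway list with POMP, NFE2L1 and IRF1. Members and lists were chosen with earlier results of these data known. All 47 members matched RefSeq symbols (ARS-UCD2.0), used for neighbours only, and 15 overlap another gene. Results of 2 genes of the ubiquitin list are not reported here.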

Additional observations from a re-analysis of the deposited data

How the results depend on the processing

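Counts of called members moved with single libraries, molded ones included. Without the 3 shallowest libraries the 5 comparisons with no mold each gave 0 members, where the 1 no mold library left takes its spread from the other groups, and the anchored post against middle comparison gave 1. Leaving out 1 library at a time gave 4 to 15 members for molded against no mold, 6 to 16 for unanchored middle, 2 to 6 for unanchored post, 4 to 12 for anchored middle, 1 to 5 for anchored post, 3 to 11 for post against middle in the mean of both mold types, and 0 to 1 in anchored and in unanchored tissue. Calls over all genes also moved in such runs, as given above for several of them. These ranges are therefore not read as particular to the members. With only the compared groups in the fit, anchored middle against no mold gave 8 members and unanchored post against middle 1. For molded against no mold this setting is the same fit and was not run. Anchored post against no mold gave 5 with library totals only, 6 with no filter and 6 with DESeq2. Its calls over all genes went from 658 to 779 with library totals only and to 918 with no filter. Post against middle gave 1 with no filter in each mold type, and with DESeq2 it gave 3 in anchored and 2 in unanchored tissue. With no filter, calls over all genes there went from 227 to 479 in anchored and from 53 to 272 in unanchored tissue. Calls over all genes by DESeq2 and by the fit on only the compared groups are not given here. The anchoring and interaction counts were 0 under every alternative run.

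Of 77 gene calls in the members and lists, 3 were kept under every alternative and 74 were lost under at least 1. Among them 55 were lost when some single library was left out, 14 with library totals only and 15 with no filter, PSMB5 in molded against no mold in both of these (adjusted p = 0.0546 and 0.0826). None changed sign. Signs did change among genes that did not pass. For molded minus no mold (log2), PSMD4 was 0.045 with library totals only, 0.026 with no filter and 0.14 without the 3 shallowest, PSME3 was -0.11 and POMP -0.0011 without the 3 shallowest, and NFE2L1 was -0.0046 with RLE scaling, -0.0069 with the replicate block and -0.0056 with DESeq2. With 1 library left out, the molded values ran from -0.050 to 0.11 for PSMB10, -0.13 to 0.063 for PSMD4, -0.0073 to 0.15 for PSME3, -0.018 to 0.10 for PSME4, -0.063 to 0.064 for NFE2L1 and -0.030 to 0.098 for POMP. The post minus middle values ran from -0.045 to 0.16 for PSMB10, -0.045 to 0.0084 for PSMC4 and -0.081 to 0.037 for NFE2L1. The cause was not tested.

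Replicate numbers are shared between groups. The 30 same-numbered pairs correlated at -0.187 to 0.297, and 8 of 15 libraries were closest to their own number. In unanchored tissue, same-numbered middle and post libraries correlated at 0.0981, 0.122 and 0.297, and differently numbered ones at -0.194 to 0.0745. In anchored tissue the same-numbered values were -0.0414, 0.091 and 0.163, and the others ran from -0.183 to 0.0686. Whether regions with the same number came from the same tissue is not given by the labels. The main tests did not pair samples, and the replicate block is the alternative that does. With the replicate block, 14 members passed in molded against no mold and 11 in post against middle, and PSMB8 lost its call among the members (adjusted p = 0.0512). Over all genes, 1877 and 1022 passed with the block. Low counts limit PSMB8, PSMB9 and PSMB11, with standard errors of up to 0.377 on the log2 scale in molded against no mold.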
